A study of Mus musculus with 6 samples.

Results

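Oxidative phosphorylation subunits are the proteins of the mitochondrial respiratory chain and of ATP synthase. They were taken here as all genes of the count table whose symbols begin with Ndufa, Ndufb, Ndufc, Ndufs, Ndufv, Uqcr, Atp5 or Cox4 to Cox8, together with Sdha, Sdhb, Sdhc, Sdhd and Cyc1. Ndufaf assembly factors and symbols with -ps were left out. The rule took 88 of 33924 genes: 38 under complex I, 4 under complex II, 9 under complex III, 19 under complex IV and 18 under complex V. RNA was sequenced from mouse bone marrow cells in 3 groups of 2 libraries. Leukemia 92 and leukemia 1 are primary leukemias of the genotype Mll-Af4/N-RasG12D. Their starting cells were c-Kit+ Sca1+ marrow of donors with the Mll-Af4 allele, aged 6 to 8 weeks. These received a Cre retrovirus marked with TdTomato and then a retrovirus carrying N-RasG12D, and 250000 of them were injected into mice irradiated with 900 rads, together with 200000 wild-type helper marrow cells. Both hits are thus present in every leukemia library, the oncogenic N-Ras comes from a retroviral vector, and the host can hold wild-type blood cells. The other group is wild-type pro-B cells sorted as B220+ CD43+ IgM- cells, for which the labels give no age. The labels do not say whether the 2 libraries of a group come from separate animals, so the spread between them may be technical. In the comparisons of single leukemias the p-values then measure only that spread. In leukemia against pro-B cells each leukemia enters as 1 sum, so the spread there is between the 2 leukemias and between the pro-B libraries.

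Complexes I to IV pass electrons from NADH and succinate to oxygen, and complexes I, III and IV pump protons across the inner mitochondrial membrane. Complex V, the ATP synthase, uses that gradient to make ATP. Most subunits are encoded in the nucleus and a few in mitochondrial DNA, and cytochrome c oxidase (complex IV) has tissue-restricted isoforms of several subunits. Some symbols that the rule takes are not structural subunits of the complex they are listed under. Atp5l2, under complex V, is named Atp5l2-ps in RefSeq, a pseudogene symbol, and stayed in because the count table writes it without -ps. It had 5 to 11 counts per library and is among the genes tested in leukemia against pro-B cells. Cox4nb is Emc8 of the endoplasmic reticulum membrane complex, Atp5s and Atp5sl are named Dmac2l and Dmac2 in RefSeq, Cox7a2l acts in supercomplex assembly, and Ndufa4 is now placed in complex IV.

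The libraries held 22153444 to 27444759 gene counts, and subunit genes took 0.803% to 1.03% of them. Of 16 pro-B markers 2 rose and 3 fell in leukemia against pro-B cells. In that comparison 9.54% of all genes tested rose and 10.7% fell, by the edgeR test described below. Pax5, a B-lineage transcription factor, was present in all 6 libraries, while the recombination gene Dntt had 0 to 1.11 CPM in the leukemia libraries, against 969 and 604 CPM in the pro-B libraries. CPM, the usual unit of counts relative to library size, are adjusted here by trimmed mean of M values (TMM). The 16 pro-B markers summed to 5140 to 7430 CPM in the leukemia libraries and to 6330 and 5240 CPM in the pro-B libraries. Of the 16, 11 did not pass, so Dntt does not stand for the whole list. The 12 markers used for plasmacytoid dendritic cells summed to 5250 and 5910 CPM in the pro-B libraries, against 1090 to 1800 CPM in the leukemia libraries. Of these, 8 of 12 fell in leukemia, and the sum does not show which cells expressed them. The 12 T and NK cell markers summed to 14.1 to 60.0 CPM in leukemia libraries and to 480 and 461 CPM in pro-B libraries, and 6 of 12 fell. Of 13 erythroid markers tested 8 fell, with a median log2 change of -5.09. The 14 erythroid markers summed to 569 to 1010 CPM in leukemia libraries and to 1100 and 1200 CPM in pro-B libraries, and most of that was the transferrin receptor Tfrc, which growing cells of other types also express. Leukemia 1 replicate 2 stood apart, with 16600 CPM over 15 granulocyte markers against 185 CPM in replicate 1, 818 and 463 CPM in leukemia 92, and 431 and 457 CPM in pro-B cells. The part of these other cells in the results below was not tested, and in such bulk samples fewer cells of a type and less RNA per cell cannot be told apart.

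Leukemia and pro-B cells expressed the subunits of oxidative phosphorylation at similar levels. Of 84 subunit genes tested, 1 rose, 1 fell and 82 did not pass in leukemia against pro-B cells, by edgeR's quasi-likelihood test adjusted over all genes, with each leukemia entering as the sum of its 2 libraries. Over all 15280 genes tested, 20.2% were called, 9.54% higher and 10.7% lower. Cox4i2, a cytochrome c oxidase isoform, rose, and Sdha, the flavoprotein of succinate dehydrogenase, fell. The median log2 change was 0.04 over the subunit genes and 0.02 over all genes. A log2 change within 0.5 of zero was seen for 88.1% of subunit genes, against 46.8% of all genes. Because the subunits are abundant, the same shares were taken over genes with a mean of at least 10 CPM, where they were 92.2% of 77 subunit genes and 59.5% of 9079 genes, and 1.30% and 19.9% of these were called. Changes of those subunit genes had a median standard error (SE) of 0.13. At an unadjusted p under 0.05 there were 12 subunit genes (14.3%), against 38.8% of all genes. Both calls were lost when either pro-B library was left out, where edgeR called 0 genes of the whole table. DESeq2 called 6 subunit genes and 28.2% of all genes. Without leukemia 92 replicate 1 edgeR called 5 subunit genes and 22.4% of all genes.

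**Figure D1:**
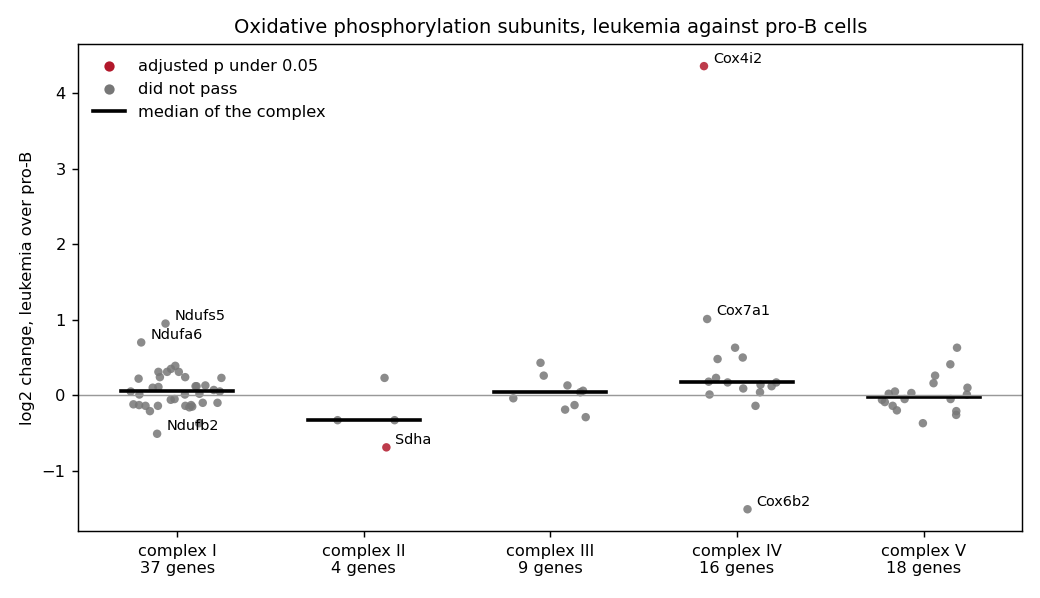
Each point is a subunit gene, placed by complex on the x axis and by its log2 change in leukemia over pro-B cells on the y axis, with bars at the median of each complex. Cox4i2 at 4.36 and Sdha at -0.69 are the points that passed the test, and 88.1% of the points lie within 0.5 of zero.

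Summed over each complex, the transcripts gave a similar picture. Complex I summed to 2104 and 2123 CPM in leukemia 92, 2077 and 2674 CPM in leukemia 1, and 2159 and 2237 CPM in pro-B cells. Complex II summed to 524.0 and 522.9 CPM in leukemia 92, 515.2 and 610.7 CPM in leukemia 1, and 708.1 and 713.7 CPM in pro-B cells. For complex II every leukemia library lay below both pro-B libraries, while for complex I the leukemia libraries lay on both sides of them. Complex III summed to 903.8 and 931.4 CPM in leukemia 92, 906.8 and 1099 CPM in leukemia 1, and 995.3 and 1020 CPM in pro-B cells. Complex IV summed to 1515 and 1546 CPM in leukemia 92, 1322 and 1836 CPM in leukemia 1, and 1294 and 1366 CPM in pro-B cells. Complex V summed to 3549 and 3669 CPM in leukemia 92, 3628 and 4193 CPM in leukemia 1, and 3960 and 4056 CPM in pro-B cells. In complexes I, III, IV and V, both leukemia 92 libraries lay outside the pro-B range and the leukemia 1 replicates lay on both sides of it or partly within it. The log2 ratios of the mean sums, leukemia over pro-B cells, were 0.03, -0.39, -0.07, 0.22 and -0.09 for complexes I to V. With scaling by library totals in place of TMM, these were -0.12, -0.54, -0.22, 0.07 and -0.24, so the sign for complex I depends on the scaling. These sums are descriptions and were not tested, and abundant genes weigh most in them. In complex II, Sdha averaged 221 CPM over the leukemia libraries and 358 CPM over the pro-B libraries, while Sdhb lay the other way at 133 and 114 CPM. In complex IV, Cox4i1 averaged 342 and 224 CPM, and log2 changes were above zero for 14 tested genes and below zero for 2. With library totals, Cox7a2, Cox7a2l, Cox7b and Cox8a moved below zero, so this count also depends on the scaling.

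**Figure D2:**
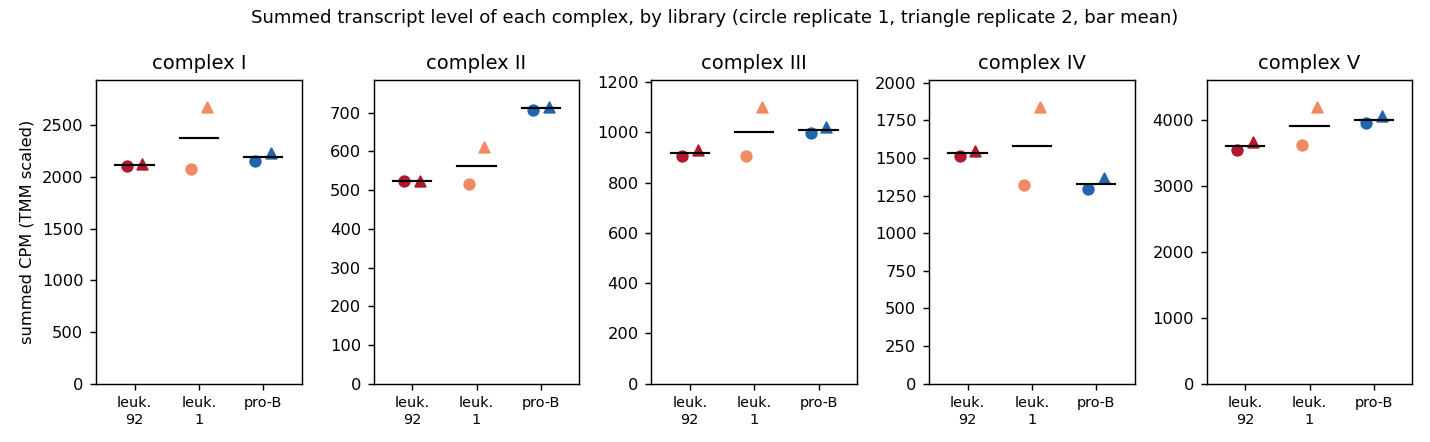
The panels give the summed TMM-scaled CPM of the genes of each complex (y axis from 0) for leukemia 92, leukemia 1 and pro-B cells, with 1 point per library and bars at the mean. Complex II is lower in all 4 leukemia libraries (515.2 to 610.7 CPM) than in both pro-B libraries (708.1 and 713.7 CPM), and leukemia 1 replicate 2 is the highest leukemia library in every panel.

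Succinate dehydrogenase (complex II) feeds electrons from the citric acid cycle into the chain, through the flavoprotein Sdha, the iron-sulfur protein Sdhb and the membrane anchors Sdhc and Sdhd. Sdha had 224 and 214 CPM in leukemia 92, 209 and 237 CPM in leukemia 1, and 358 and 358 CPM in pro-B cells. All 4 leukemia libraries lay well below both pro-B libraries, and the leukemias overlapped each other. The log2 change was -0.69 (SE 0.11, adjusted p = 0.028, edgeR), and it was -0.71 for leukemia 92 alone (adjusted p = 0.014) and -0.68 for leukemia 1 alone (adjusted p = 0.023). Both of these share the pro-B libraries. The call in leukemia 92 was lost without any 1 library of leukemia 92 or pro-B cells (adjusted p 0.11 to 0.13). That in leukemia 1 was lost without any 1 of the same libraries (adjusted p 0.083 to 0.19) and in a fit of the leukemia 1 and pro-B libraries alone (adjusted p = 0.077). For leukemia as a whole the adjusted p was 0.055 without leukemia 1 replicate 1, and 0.35 and 0.34 without pro-B replicates 1 and 2. Sdhd had 97.0 and 99.4 CPM in leukemia 92, 103 and 128 CPM in leukemia 1, and 133 and 137 CPM in pro-B cells, with a log2 change of -0.33 and an adjusted p of 0.14. Sdhc had 78.2 and 76.8 CPM in leukemia 92, 76.6 and 97.1 CPM in leukemia 1, and 104 and 103 CPM in pro-B cells (log2 change -0.33, adjusted p = 0.12). Neither anchor passed the test, although all leukemia libraries lay below both pro-B libraries. Sdhb was placed the other way. It had 125 and 133 CPM in leukemia 92, 127 and 148 CPM in leukemia 1, and 113 and 115 CPM in pro-B cells (log2 change 0.23, SE 0.11, adjusted p = 0.21), and did not pass.

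The 250 bases before the gene starts of Sdha, Sdhd, Sdhb and Ndufs5 are shown. Sdha, Sdhd and Sdhb were taken because these genes of the same enzyme lay on different sides of the pro-B level. Among them only Sdha passed the test, and the window of Sdhc is not shown. Ndufs5 was taken because it differed most from pro-B cells among complex I genes, although it did not pass in leukemia as a whole. The sequences are from RefSeq on build GRCm38.p6, whereas the counts were made on mm9. They lie at chr13:74350241-74350490 on the minus strand for Sdha, chr9:50603850-50604099 on the minus strand for Sdhd, chr4:140961021-140961270 on the plus strand for Sdhb and chr4:123718187-123718436 on the minus strand for Ndufs5. Each is written 5′ to 3′ on the strand of the gene, and capitals mark matches, on either strand, to GCGC, any 2 bases and GCGC again (the type bound by NRF1) or CCGGAAG (the type bound by ETS factors such as GABP).

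Sdha: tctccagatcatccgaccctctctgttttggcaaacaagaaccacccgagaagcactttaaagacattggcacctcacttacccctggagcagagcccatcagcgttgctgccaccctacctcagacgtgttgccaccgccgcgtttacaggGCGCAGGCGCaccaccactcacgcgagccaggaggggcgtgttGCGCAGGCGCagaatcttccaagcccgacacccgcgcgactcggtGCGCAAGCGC

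Sdhd: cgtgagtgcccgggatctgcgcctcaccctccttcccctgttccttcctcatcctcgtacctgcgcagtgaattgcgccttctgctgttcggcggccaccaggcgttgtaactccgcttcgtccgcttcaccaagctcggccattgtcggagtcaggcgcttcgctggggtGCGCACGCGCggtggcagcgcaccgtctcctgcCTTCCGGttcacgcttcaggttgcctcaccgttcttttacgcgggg

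Sdhb: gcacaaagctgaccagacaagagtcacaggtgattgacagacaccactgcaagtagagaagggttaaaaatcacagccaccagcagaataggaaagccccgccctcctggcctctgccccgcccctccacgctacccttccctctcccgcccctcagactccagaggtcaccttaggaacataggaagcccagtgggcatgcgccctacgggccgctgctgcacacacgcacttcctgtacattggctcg

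Ndufs5: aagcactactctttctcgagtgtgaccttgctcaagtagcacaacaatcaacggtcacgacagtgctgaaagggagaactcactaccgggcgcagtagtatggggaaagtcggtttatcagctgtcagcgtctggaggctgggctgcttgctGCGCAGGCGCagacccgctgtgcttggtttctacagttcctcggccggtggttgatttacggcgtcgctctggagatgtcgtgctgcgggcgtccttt

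Sdha held 3 matches to the NRF1-type letters, Sdhd 1 and Ndufs5 1, and Sdhd held 1 match to the ETS-type letters. None of the searched motifs was in the window of Sdhb. Of 70 subunit genes with a promoter in the table, 15 (21.4%) held the NRF1-type letters, against 5.64% of 27025 genes. The 27025 are all genes with a promoter, expressed here or not, so the shares are not matched for abundance. CCGGAAG was in 12 (17.1%) of the subunit genes and in 7.83% of all genes. The subset of the NRF1-type letters with AT as the central bases was in 5.71% and 0.877%, and AAGATGGCG, of the YY1 type, in 2.86% and 0.710%. No test was made of these shares, and a match is a description of letters and not of binding.

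Complex I, the NADH dehydrogenase, had 37 of 38 genes tested, and 0 passed in leukemia against pro-B cells (edgeR), with 2 at an unadjusted p under 0.05. Log2 changes were above zero for 22 and below zero for 15 of its genes, with a median of 0.05, and most of these signs were below zero under scaling by library totals.

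Ndufs5, an accessory subunit, had the highest log2 change of complex I. It had 12 and 13.2 CPM in leukemia 92, 23.0 and 31.1 CPM in leukemia 1, and 10.2 and 10.3 CPM in pro-B cells. All leukemia libraries lay above both pro-B libraries, and leukemia 1 above leukemia 92. The change of 0.95 (SE 0.41) did not pass (adjusted p = 0.18), although it had an adjusted p of 0.026 in a fit of the 6 libraries with 1 coefficient per group. In that fit Ndufs5 rose in leukemia 1 against pro-B cells, with a log2 change of 1.40 (SE 0.21, adjusted p = 0.016). The call was lost when any library of leukemia 92 or pro-B cells was left out (adjusted p 0.070 to 0.16). The change in leukemia 92 was 0.30 (adjusted p = 0.33), and the difference between the leukemias, leukemia 92 minus leukemia 1, was -1.11 (SE 0.21, adjusted p = 0.062). Ndufb2, a membrane-arm accessory subunit, had the lowest change of complex I, -0.51 (SE 0.32, adjusted p = 0.31). It had 5.51 and 5.65 CPM in leukemia 92, 6.66 and 7.90 CPM in leukemia 1, and 10.8 and 7.48 CPM in pro-B cells, where the groups overlapped.

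Complex I also held the other genes called in leukemia 92 against pro-B cells, named after their values were seen. Ndufa5, an accessory subunit of the peripheral arm, had 16.9 and 18.5 CPM in leukemia 92, 27.3 and 30.6 CPM in leukemia 1, and 30.1 and 30.1 CPM in pro-B cells. Leukemia 92 lay below all other libraries, and leukemia 1 overlapped pro-B cells. In leukemia 92 Ndufa5 fell, with a log2 change of -0.76 (SE 0.14, adjusted p = 0.018), and had a change of -0.05 in leukemia 1 (adjusted p = 0.81). The difference between the leukemias was -0.71 (SE 0.14) and did not pass (adjusted p = 0.068). Ndufa6, another accessory subunit, had 93.2 and 89.5 CPM in leukemia 92, 69.1 and 83.3 CPM in leukemia 1, and 48.8 and 55.2 CPM in pro-B cells. Every leukemia library exceeded both pro-B libraries. Ndufa6 rose by 0.81 in leukemia 92 (SE 0.15, adjusted p = 0.018), and its change of 0.55 in leukemia 1 had an adjusted p of 0.061. The difference between the leukemias was 0.26 (adjusted p = 0.34). Both calls in leukemia 92 were lost when a library of leukemia 92 or pro-B cells was left out (adjusted p 0.11 to 0.16).

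Complex III, the cytochrome bc1 complex, had 0 of 9 genes called with edgeR, with 1 at an unadjusted p under 0.05. Uqcrq, a small subunit, had its highest change, 0.43 (SE 0.15, adjusted p = 0.12), with 38.5 and 37.0 CPM in leukemia 92, 40.2 and 51.0 CPM in leukemia 1, and 29.8 and 32.7 CPM in pro-B cells. Uqcrc2, a core protein, had its lowest, -0.29 (SE 0.11, adjusted p = 0.14), with 186 and 192 CPM in leukemia 92, 205 and 197 CPM in leukemia 1, and 244 and 236 CPM in pro-B cells. The groups of both genes did not overlap. Such separation was common: all leukemia libraries lay above both pro-B libraries for 23.4% of all genes and below them for 27.3%, against 11 and 9 of the 84 subunit genes.

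In cytochrome c oxidase (complex IV), the last enzyme of the chain, 16 of 19 genes were tested and Cox4i2 passed. Subunit 4 is made in a ubiquitous form, Cox4i1, and in an oxygen-responsive form, Cox4i2, best known from lung. Cox4i2 had 3.0 and 1.45 CPM in leukemia 92, 2.44 and 1.11 CPM in leukemia 1, and 0.0740 and 0.117 CPM in pro-B cells, from 73, 31, 60 and 30 counts in leukemia and 2 and 3 counts in pro-B libraries. All leukemia libraries exceeded both pro-B libraries. Cox4i2 rose with a log2 change of 4.36 (SE 0.51, adjusted p = 0.018), which was 4.48 in leukemia 92 (adjusted p = 0.014) and 4.15 in leukemia 1 (adjusted p = 0.024) singly. Leukemia summed to 194 counts and pro-B cells to 5, a ratio of 21.0 after scaling, with an exact 95% interval of 8.84 to 65.3 that covers counting error only. For leukemia as a whole the adjusted p was 0.22 and 0.20 without pro-B replicates 1 and 2. The call in leukemia 92 was lost without any 1 library of leukemia 92 or pro-B cells (adjusted p 0.062 to 0.13). That in leukemia 1 was lost without any 1 of the same libraries (adjusted p 0.068 to 0.20) and in a fit of the leukemia 1 and pro-B libraries alone (adjusted p = 0.058). Cox4i1 had 367 and 353 CPM in leukemia 92, 261 and 388 CPM in leukemia 1, and 214 and 234 CPM in pro-B cells. Its change of 0.63 (SE 0.14) lay at the threshold and did not pass (adjusted p = 0.051), although it passed in DESeq2 (adjusted p = 0.0085) and without leukemia 92 replicate 1 or leukemia 1 replicate 1 (adjusted p = 0.044 and 0.045). Over all alternatives run for Cox4i1 the adjusted p was 0.0085 to 0.50, and without leukemia 1 replicate 2 it was 0.25, with a log2 change of 0.48. Per kilobase of exon, taken from GENCODE M21, Cox4i1 averaged 447 CPM over the leukemia libraries and 293 CPM over the pro-B libraries, and Cox4i2 2.54 and 0.121 CPM, so Cox4i1 was the more abundant form in both. Cox4nb, whose gene lies beside Cox4i1, had 43.2 and 40.4 CPM in leukemia 92, 50.5 and 43.6 CPM in leukemia 1, and 48.8 and 49.5 CPM in pro-B cells (log2 change -0.14, adjusted p = 0.44).

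Other tissue-restricted isoforms of complex IV were detected without passing the test of leukemia against pro-B cells. Cox6b2, known from testis, had 1.15 and 1.07 CPM in leukemia 92, 0.0406 and 1.74 CPM in leukemia 1, and 2.96 and 2.92 CPM in pro-B cells. Every leukemia library lay below pro-B cells, and leukemia 1 replicate 1 had 1 count. Its log2 change of -1.51 (SE 0.35) had an adjusted p of 0.055, and 0.016 to 0.46 over the alternatives run, with the lowest in DESeq2. Without leukemia 1 replicates 1 and 2 the change was -1.03 and -2.23. Cox7a1, the heart and muscle form of subunit 7a, had 2.10 and 2.43 CPM in leukemia 92, 2.6 and 2.51 CPM in leukemia 1, and 1.22 and 1.17 CPM in pro-B cells (log2 change 1.01, SE 0.33, adjusted p = 0.11). It passed in the fit of 6 libraries (adjusted p = 0.045) and, for leukemia 1 alone, in DESeq2 (adjusted p = 0.044), while its adjusted p was 0.090 to 0.65 under the other alternatives for leukemia as a whole. Cox6a2, the heart and muscle form of subunit 6a, had 35.0 and 42.4 CPM in leukemia 92, 49.6 and 94.7 CPM in leukemia 1, and 34 and 44.7 CPM in pro-B cells. Leukemia 92 overlapped pro-B cells, and leukemia 1 replicate 2, the library with granulocyte transcripts, was the highest. Per kilobase of exon Cox6a2 averaged 81.5 CPM over the leukemia libraries and 57.9 CPM over the pro-B libraries, against 169 and 145 CPM for the ubiquitous Cox6a1. Cox7b2 and Cox8c had 0 counts in all 6 libraries, Cox8b 2 counts in leukemia 1 replicate 1 alone, and Ndufa4l2, a hypoxia-induced relative of Ndufa4, 3 counts in leukemia 1 replicate 2 alone. These 4 genes did not reach the count filter and were not tested.

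**Figure D3:**
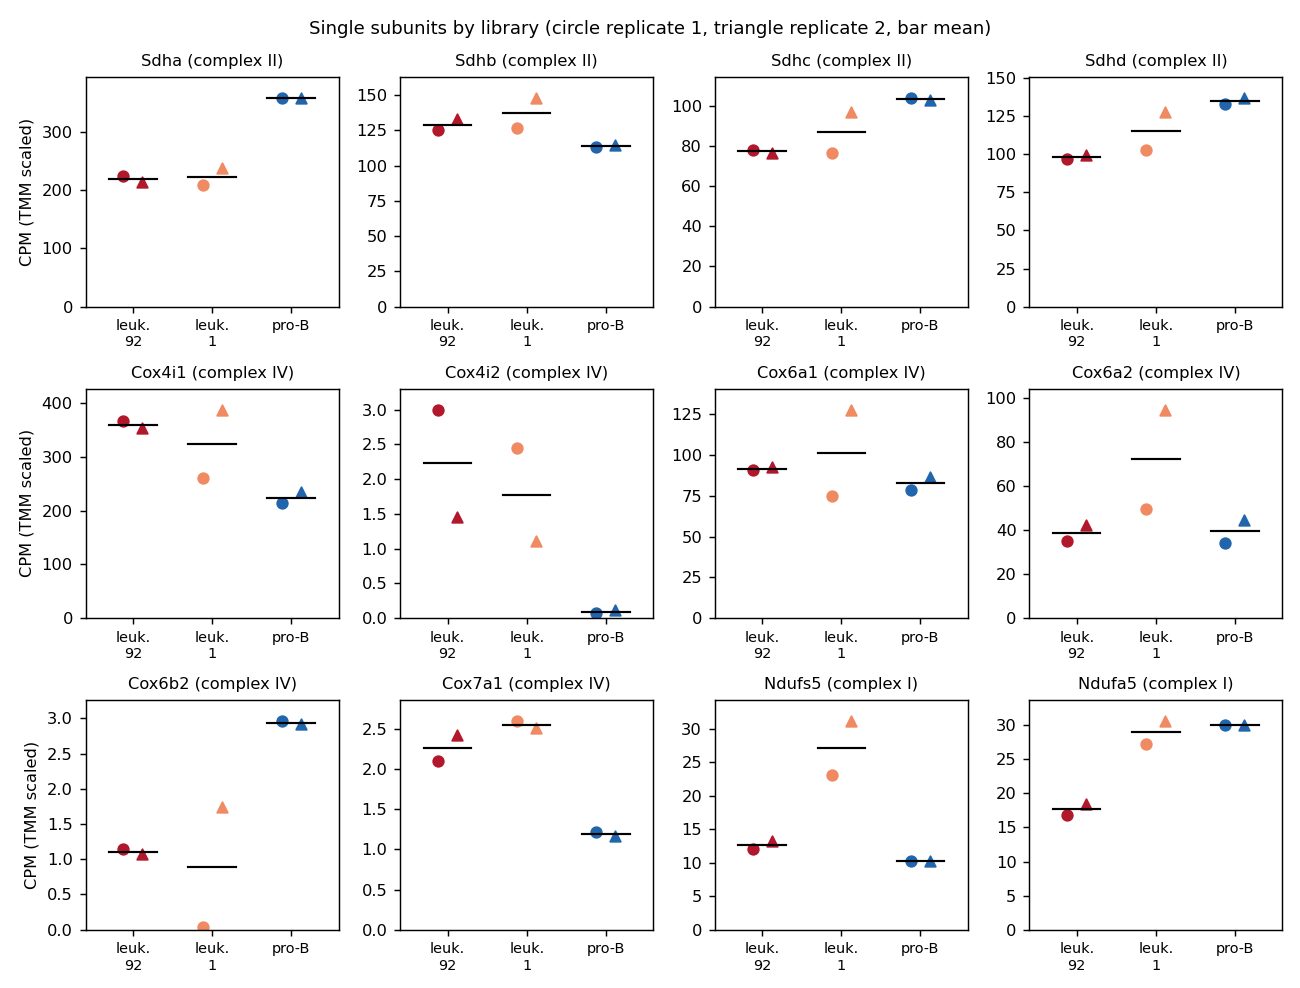
TMM-scaled CPM (y axis from 0) of single subunit genes in leukemia 92, leukemia 1 and pro-B cells, with 1 point per library and bars at the mean. Sdha lies at 209 to 237 CPM in the leukemia libraries and at 358 CPM in the pro-B libraries, Cox4i2 at 1.11 to 3.0 CPM against 0.0740 and 0.117 CPM, and Ndufs5 is highest in leukemia 1.

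More widely expressed forms of these subunits, and the assembly protein Cox7a2l, did not pass either. Cox6a1, Cox6b1, Cox7a2, Cox7a2l, Cox7b and Cox8a had log2 changes of 0.23, 0.17, 0.04, 0.14, 0.09 and 0.01, with adjusted p values of 0.24 to 0.94. Cox8a, for example, had 99.8 and 119 CPM in leukemia 92, 92.7 and 139 CPM in leukemia 1, and 109 and 116 CPM in pro-B cells. Leukemia and pro-B values overlapped for each of these 6 genes. Ndufa4 had 134 and 133 CPM in leukemia 92, 154 and 203 CPM in leukemia 1, and 173 and 173 CPM in pro-B cells (log2 change -0.14, adjusted p = 0.57).

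ATP synthase (complex V) had 0 of 18 genes called with edgeR, with 2 at an unadjusted p under 0.05. Its catalytic beta subunit Atp5b had 1030 and 1090 CPM in leukemia 92, 1150 and 1200 CPM in leukemia 1, and 1240 and 1240 CPM in pro-B cells (log2 change -0.14, adjusted p = 0.39). The membrane ring is built from subunit c, which is encoded by Atp5g1, Atp5g2 and Atp5g3 with the same mature protein. Atp5g1 had 56.8 and 60.5 CPM in leukemia 92, 55.6 and 78.2 CPM in leukemia 1, and 45.7 and 49.3 CPM in pro-B cells (log2 change 0.41, SE 0.12, adjusted p = 0.091). Atp5g2 had 27.3 and 26.3 CPM in leukemia 92, 21.6 and 37.6 CPM in leukemia 1, and 28.7 and 30.2 CPM in pro-B cells (log2 change -0.05, adjusted p = 0.82). Atp5g3, the most abundant of the 3 per kilobase of exon, had 233 and 251 CPM in leukemia 92, 248 and 293 CPM in leukemia 1, and 277 and 262 CPM in pro-B cells (log2 change -0.06, adjusted p = 0.72). The groups separated for Atp5g1 and overlapped for Atp5g2 and Atp5g3. Atp5l, a membrane subunit, had the highest change of complex V at 0.63 (SE 0.20, adjusted p = 0.098), with 17.5 and 15.3 CPM in leukemia 92, 13.5 and 18.7 CPM in leukemia 1, and 10 and 11.2 CPM in pro-B cells. Atp5s had the lowest at -0.37 (SE 0.26, adjusted p = 0.36), with 6.78 and 7.19 CPM in leukemia 92, 5.69 and 6.58 CPM in leukemia 1, and 9.11 and 7.99 CPM in pro-B cells. Many subunit genes have processed pseudogenes, and the table's entry for reads without a unique alignment held 23.6% to 27.3% of a library's entries, so the levels of genes with near-identical copies, the Atp5g genes included, are uncertain.

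The leukemias were then compared singly in the fit of 6 libraries. In leukemia 92 against pro-B cells 2 of 83 subunit genes rose, 2 fell and 79 did not pass, while 31.4% of all genes were called, 14.7% higher and 16.7% lower. In leukemia 1 against pro-B cells 2 rose, 1 fell and 80 did not pass, while 20.3% of all genes were called, 9.55% higher and 10.7% lower. These comparisons share the pro-B libraries. In leukemia 92 against leukemia 1, 0 of 83 passed with edgeR, with 8 at an unadjusted p under 0.05 against 25.1% of all genes. Here edgeR called 3.09% of all genes, and DESeq2 called 1 subunit gene higher and 4 lower beside 18.2% of all genes. The counts of calls depended on the leukemia 1 pair. In a fit without leukemia 1 replicate 2, 13 subunit genes were higher and 29 lower in leukemia 92 against pro-B cells, where 69.4% of all genes were called. Without leukemia 1 replicate 1 the numbers were 18 and 25, with 67.6% of all genes called. For leukemia 1 against pro-B cells, replicate 2 alone gave 50 subunit genes higher and 4 lower, with 59.6% of all genes called, while replicate 1 alone gave 6 higher and 26 lower, with 62.2% called. For leukemia 92 against leukemia 1 the same fits gave 1 higher and 50 lower against replicate 2, with 50.5% called, and 17 higher and 8 lower against replicate 1, with 52.5% called. The direction of the calls in leukemia 1 thus depended on which of its libraries was used, and a lone library is assumed in these fits to vary like the other groups. The median log2 change of subunit genes was -0.04 in leukemia 92, 0.11 in leukemia 1 and -0.15 in leukemia 92 over leukemia 1, beside -0.04, 0.05 and -0.08 for all genes.

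Other fits moved these counts as well. In leukemia against pro-B cells the fit of 6 libraries called 6 subunit genes and 31.5% of all genes, and a fit with the replicate number as a block called 4 and 22.5%. In leukemia 92 against pro-B cells the count was 8 with library totals (33.0% of all genes), 11 with DESeq2 (36.5%) and 42 in a fit of those 4 libraries (71.6%). In leukemia 1 against pro-B cells it was 9 with DESeq2 (29.7%) and 0 in a fit of those 4 libraries (6.45%).

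The leukemia 1 libraries differed from each other in most subunit genes. Of 83 subunit genes with a transcript length and at least 1 CPM, 78 were higher in replicate 2 than in replicate 1, by a median of 0.38 on the log2 scale, against 0.03 for leukemia 92 and 0.04 for pro-B cells. The gap was largest for short transcripts: 0.57 over 16 subunit genes of up to 600 bases, 0.43 over 30 of 601 to 1000 bases, 0.33 over 26 of 1001 to 2000 bases and 0.15 over 8 of 2001 to 4000 bases, with 0.23 over 3 longer ones. All genes in the same classes had medians of 0.61, 0.42, 0.23 and 0.01, and -0.35 above 4000 bases. Of all 10464 genes with a length and at least 1 CPM, 5183 were higher in replicate 2. These included 79 of 88 genes of up to 600 bases and 332 of 398 genes of 601 to 1000 bases. A high share was thus also seen among short genes of all kinds. Subunit transcripts are short, with a median of 908 bases against 3158 bases over all 10464 genes. Each length is that of the longest protein-coding transcript of the gene in GENCODE M21, which need not be the form expressed here. Across subunit genes within this pair the rank correlation of the gap was -0.49 with length and 0.42 with GC content, and over all genes -0.33 and 0.34, where genes share the libraries and are not independent. Over the pro-B mean, the median of the subunit genes was -0.08 and -0.03 in leukemia 92 and -0.10 and 0.31 in leukemia 1. Leukemia 1 replicate 2 was thus the library in which subunit transcripts stood high, and the part of its granulocyte transcripts in that was not tested.

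**Figure D4:**
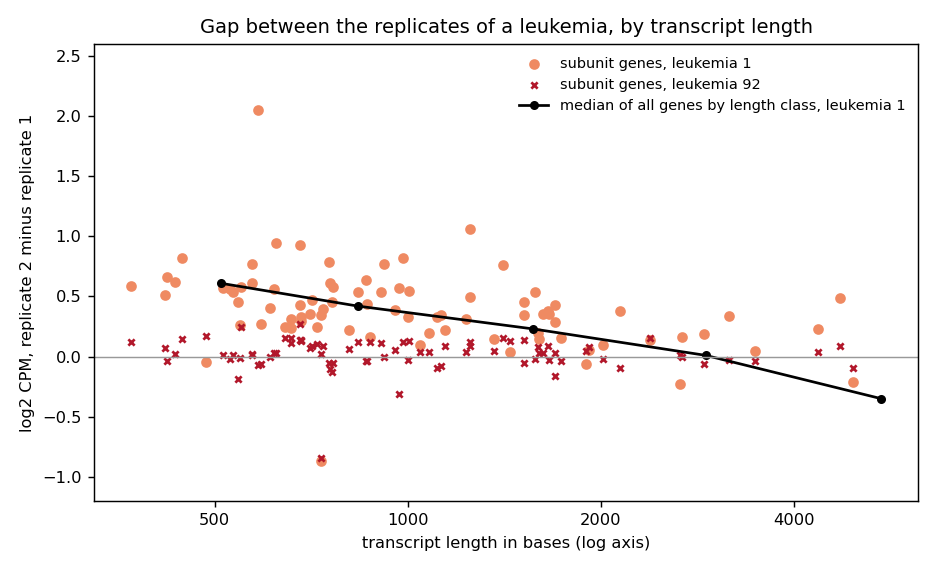
Log2 CPM of replicate 2 minus replicate 1 (y axis) against transcript length on a log axis (x axis), for subunit genes in leukemia 1 (filled circles) and leukemia 92 (crosses), with the median of all genes by length class in leukemia 1 as a line. Leukemia 1 values lie mostly above zero and lower for longer transcripts, from a median of 0.57 in the shortest class to 0.15 at 2001 to 4000 bases, while leukemia 92 stays near zero with a median of 0.03.

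Subunits encoded in mitochondrial DNA were measured for 7 of 13 genes, and the other 6 had 0 to 5 counts in each library and were not compared. In leukemia against pro-B cells 0 of 7 were called with edgeR (median log2 change -0.01), beside 20.2% of all genes. mt-Co1, the catalytic subunit of complex IV, had 8540 and 8690 CPM in leukemia 92, 5510 and 8920 CPM in leukemia 1, and 6780 and 6550 CPM in pro-B cells. mt-Nd5, a proton-pumping subunit of complex I, had 1710 and 1670 CPM in leukemia 92, 1460 and 1310 CPM in leukemia 1, and 2020 and 1970 CPM in pro-B cells. mt-Nd5 did not pass in leukemia as a whole (log2 change -0.37, adjusted p = 0.20) but fell in leukemia 1, with a log2 change of -0.53 (SE 0.10, adjusted p = 0.029).

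Genes that build, feed and regulate the chain were also compared between leukemia and pro-B cells, where 20.2% of all genes were called. Of 45 assembly factors tested 1 rose, 1 fell and 43 did not pass (median log2 change 0.08). Cox17, the copper chaperone of cytochrome c oxidase, had 30.7 and 32.1 CPM in leukemia 92, 26.7 and 36.7 CPM in leukemia 1, and 19.6 and 18.8 CPM in pro-B cells, and rose by 0.73 (SE 0.14, adjusted p = 0.038). Lyrm7, an assembly factor of complex III, had 0.740 and 0.934 CPM in leukemia 92, 1.06 and 1.03 CPM in leukemia 1, and 4.55 and 4.99 CPM in pro-B cells, and fell by 2.34 (SE 0.34, adjusted p = 0.024). None of 18 citric acid cycle genes, of 23 carriers, ubiquinone and cytochrome c genes, or of 16 genes of mitochondrial DNA expression was called with edgeR, and their median log2 changes were -0.11, -0.01 and -0.18. Among 15 regulators of mitochondrial biogenesis 4 rose, 1 fell and 10 did not pass (median -0.18), beside 9.54% of all genes higher and 10.7% lower. Ppargc1a, the coactivator PGC-1alpha, had 0 counts in all 4 leukemia libraries and 153 and 147 counts in pro-B libraries, at least 185-fold lower in leukemia against a floor of 3 counts over the leukemia libraries. Its relative Pprc1 had 86.1 and 95.6 CPM in leukemia 92, 125 and 75.9 CPM in leukemia 1, and 49.9 and 46.7 CPM in pro-B cells, and rose by 0.98 (SE 0.12, adjusted p = 0.018). Tcfe3, a transcription factor best known for lysosomal genes, had 60.6 and 61.2 CPM in leukemia 92, 96.6 and 54.5 CPM in leukemia 1, and 31.7 and 27.2 CPM in pro-B cells, and rose by 1.2 (SE 0.16, adjusted p = 0.020). All leukemia libraries exceeded the pro-B libraries for Pprc1 and Tcfe3. The nuclear receptors Esrra and Ppard also rose, with log2 changes of 1.57 (adjusted p = 0.041) and 0.82 (adjusted p = 0.046).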

How the data were processed

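The deposited table holds read counts per gene, 1 column per library. Per the submitters' processing notes, which give neither role nor order, the tools were STAR 2.4, HTSeq 0.6.1 and DESeq2 and the build was mm9. The annotation behind the counts, and whether strand was used, is not given in the sources used here. The 5 entries that name no gene held 34.0% to 39.6% of a library's entries and were left out. Low genes were removed by filterByExpr (minimum count 10) and the rest were fitted in edgeR 4.0.16 (R 4.3.3) with TMM scaling and its quasi-likelihood test, robust option on. Genes counted as called where the p, adjusted over all genes after Benjamini-Hochberg, was under 0.05. Leukemia against pro-B cells used counts summed per leukemia, and the other comparisons used all 6 libraries with 1 coefficient per group. SE values derive from the F statistics. At this depth 3 counts correspond to 0.109 to 0.135 CPM before TMM scaling. DESeq2 1.42.0, other scalings, no filter, leaving out libraries and a replicate block were tried. The edgeR fits of leukemia and of leukemia 92 against pro-B cells were tested on simulated data. There every library had the same spread. In the real data the log2 differences between replicates had a standard deviation of 1.33 in leukemia 1, 0.4 in leukemia 92 and 0.35 in pro-B cells. The simulation therefore does not cover the wide leukemia 1 pair. Exon lengths came from GENCODE M21 for all 88 genes, and RefSeq names matched 88, of which 5 by synonym. Values per library follow a naming rule: called genes, the highest and lowest change of each complex, and isoform families. Genes outside it were chosen after their values were seen, and a few items are not reported here. The members and lists were chosen with earlier results of these data known.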

Additional observations from a re-analysis of the deposited data

Results flagged for a closer look

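For 5 subunit genes both libraries of one leukemia lay above both pro-B libraries and both libraries of the other lay below them. These were Atp5f1, Cox7b, Ndufa12, Ndufa9 and Ndufs4, each lower in leukemia 92 and higher in leukemia 1. Their log2 differences, leukemia 92 minus leukemia 1, were -0.29, -0.22, -0.45, -0.31 and -0.40, with edgeR adjusted p values of 0.20, 0.40, 0.19, 0.18 and 0.24, so none passed the test of the difference. Ndufa12, an accessory subunit of complex I, had 22.4 and 21.0 CPM in leukemia 92, 26.2 and 32.9 CPM in leukemia 1, and 25.7 and 25.4 CPM in pro-B cells. Such opposite placement was seen for 6.02% of subunit genes and for 5.85% of all genes tested.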

How the results depend on the processing

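The rise of Cox4i2 and the fall of Sdha kept their direction under every alternative run for leukemia against pro-B cells. Library totals in place of TMM put the median log2 change of all genes at -0.14, against 0.02, and that of subunit genes at -0.12, against 0.04, and the log2 ratios of summed complexes II, III and V to -0.54, -0.22 and -0.24. In leukemia 92 it called 8 subunit genes. DESeq2 called 4765 genes and 6 subunit genes in leukemia against pro-B cells, 11 subunit genes in leukemia 92, 4616 genes and 9 subunit genes in leukemia 1, and 2663 genes and 5 subunit genes between the leukemias. The fit of 6 libraries called 4712 genes and 6 subunit genes in leukemia against pro-B cells. Fits of 4 libraries called 10447 genes and 42 subunit genes in leukemia 92, 932 and 0 in leukemia 1, and 0 genes between the leukemias. The cause of these differences was not tested.

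The replicate numbers do not show pairing: replicate differences correlated at -0.0994, -0.0258 and 0.0763 between groups. With the replicate block, 4 subunit genes were called in leukemia against pro-B cells, 1439 genes in leukemia 1 and 0 genes between the leukemias, Cox8a was at -0.01, and Sdha in leukemia 1 had an adjusted p of 0.061 (edgeR).

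With 1 library left out, genes called ranged from 0 to 3244 and subunit genes from 0 to 5 in leukemia against pro-B cells. The ranges were 472 to 10746 and 0 to 43 in leukemia 92, 0 to 9641 and 0 to 54 in leukemia 1, and 0 to 8133 and 0 to 51 between the leukemias. In the comparisons of single leukemias the high ends came without a leukemia 1 library, which removes the widest pair, and the low ends without a pro-B or leukemia 92 library.

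Changes near zero turned in sign without passing a test: under library totals Cox7a2 (-0.12), Cox7a2l (-0.02), Cox7b (-0.07) and Cox8a (-0.14), and under RLE scaling Cox8a (-0.00). With 1 library left out, Atp5g2 ranged from -0.28 to 0.15, Atp5g3 from -0.14 to 0.01, Cox7a2 from -0.05 to 0.13, Cox7b from -0.01 to 0.18 and Cox8a from -0.15 to 0.16.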

Other observations

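The ribosomal RNAs of mitochondrial DNA differed between the leukemia 1 replicates. mt-Rnr1 had 536 and 601 CPM in leukemia 92, 868 and 455 CPM in leukemia 1, and 311 and 295 CPM in pro-B cells. It rose in leukemia against pro-B cells, with a log2 change of 1.01 (SE 0.12, adjusted p = 0.018, edgeR). In leukemia 92 and leukemia 1 singly it did not pass (edgeR adjusted p = 0.09 and 0.07). mt-Rnr2 had 792 and 892 CPM in leukemia 92, 1560 and 722 CPM in leukemia 1, and 901 and 875 CPM in pro-B cells. Its log2 change of 0.14 in leukemia against pro-B cells did not pass (edgeR adjusted p = 0.55). For both, leukemia 1 replicate 1 was the higher of its pair, as was mt-Nd5, while mt-Co1 and mt-Cytb were higher in replicate 2.

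Relative to pro-B cells, short subunit transcripts of up to 600 bases had medians of 0.13 and 0.17 in leukemia 92 and -0.09 and 0.53 in leukemia 1 on the log2 scale, over 16 genes. The 88 genes of all kinds in that class had medians of 0.43, 0.44, 0.02 and 0.58 in the same libraries.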
